A study of Sus scrofa with 6 samples.

Results

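The second week of life was examined by setting day 14 against day 7 in cells of the piglet ileum, measured by droplet single-cell RNA sequencing (scRNA-seq). In this assay each messenger RNA captured from a cell carries a cell barcode and a unique molecular identifier (UMI), so that a captured molecule is counted once. A barcode was taken as a cell when it held at least 1000 UMIs and at least 500 genes. This held for 12634 barcodes on day 7 and 15956 on day 14, 28590 of the 76099 in the 6 libraries of the series (days 0, 1, 3, 7, 14 and 21). B cells were barcodes with at least 2 UMIs of MS4A1, PAX5 and POU2AF1 together and none of CD3E and CD3G. They were split by TOP2A, the topoisomerase that untangles DNA in dividing cells, and PCLAF, a partner of the replication clamp. Non-cycling B cells had no UMI of these genes and cycling B cells had at least 2. T cells had at least 2 UMIs of CD3E and CD3G together and none of MS4A1 and PAX5.

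Both libraries came from male Large White piglets that were suckled by the sow and given no antibiotic, vaccine or additive, and the 5 piglets of an age gave 1 library. The sample labels give the ileum as the tissue, while the design text names the cecum. How the cells of the 5 piglets were combined is not given in the sources used here. With 1 library per age there was no replicate error, so that no difference was tested and no p-value is given, and age and library cannot be told apart. Levels are UMIs of a gene per 10000 UMIs summed over the cells of a set. Intervals are at 95% and cover counting error only, so a narrow interval does not carry the spread between animals.

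The ileum of the young pig is lined over much of its length by Peyer's patches, lymphoid follicles in which B cells multiply and change their antibody genes. In a germinal centre, activated B cells divide and are selected for the fit of their receptor to antigen, under the repressor BCL6. Naive B and T cells instead carry the transcription factor KLF2 and its target S1PR1, the receptor with which lymphocytes leave lymphoid tissue along a gradient of sphingosine-1-phosphate. Interferons induce a common set of antiviral genes, such as ISG15 and MX1, in most cell types.

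Raw counts summed to 81587648 UMIs on day 7 and 100348769 on day 14, the deepest of the 6 libraries. Median depth per cell was 3856.5 and 4560 UMIs. A median of 5.70% and 4.65% of a cell's UMIs lay in the mitochondrial genome. The passing barcodes shared by both libraries numbered 53, which is 0.420% of day 7 and 0.332% of day 14. The study presents these libraries as cells of the intestinal epithelium, but epithelial genes were scarce at both ages and most cells passed the B cell gate. The 34 epithelial genes that could be looked up summed to 210 per 10000 over all cells at birth (day 0), 12.1 on day 7 and 1.70 on day 14. The 22 genes of the B cell surface and receptor summed to 9.37, 44.5 and 48.2 at the same ages. Barcodes that carried both B and T cell genes, which a doublet could give, numbered 291 on day 7 and 294 on day 14. The B cell gate leaves them out, but 27 and 21 of them, with POU2AF1 and without MS4A1 and PAX5, are among the T cells.

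B cells made up 80.4% of the cells on day 7 (10154 cells, 79.7 to 81.1%) and 91.1% on day 14 (14529 cells, 90.6 to 91.5%). Cycling cells were 26.4% of the B cells on day 7 (2680 cells, 25.5 to 27.3%) and 54.4% on day 14 (7899 cells, 53.6 to 55.2%). Over the 6 ages, this share was 5.27%, 7.04%, 21.6%, 26.4%, 54.4% and 34.3%, so that day 14 was the highest of the series and day 21 lay between day 7 and day 14. The gate for cycling cells counts UMIs and therefore depends on depth. With every barcode thinned to 1000 UMIs, the cycling share was still 17.8 percentage points higher on day 14, against 27.97 points unthinned. Non-cycling cells numbered 6428 on day 7 and 5143 on day 14, and 1046 and 1487 B cells with 1 UMI of TOP2A or PCLAF were in neither set. T cells were 3.42% of the cells on day 7 (432 cells) and 2.24% on day 14 (357 cells). The remaining barcodes, in neither gate, were 16.2% on day 7 and 6.71% on day 14. Of the 8357 genes considered in them by the minimums given next, 296 (3.54%) were at least 2-fold higher on day 14 and 768 (9.19%) at least 2-fold lower.

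**Figure D1:**
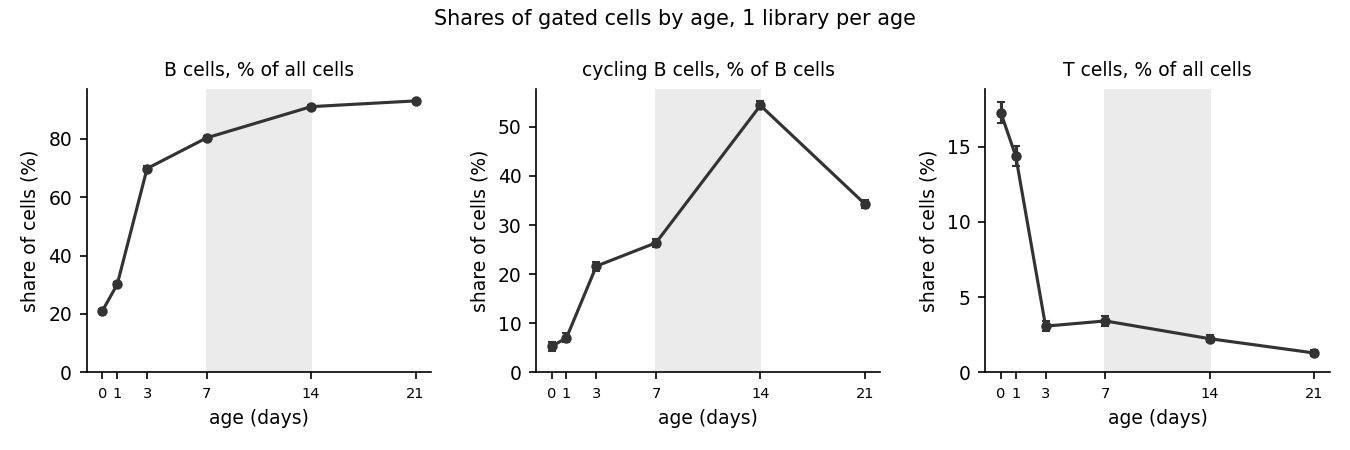
Share of B cells among all cells, of cycling B cells among B cells and of T cells among all cells (%, vertical) by age in days (horizontal), 1 library per age, with exact 95% intervals for counting error and the second week shaded. Cycling B cells were 26.4%, 54.4% and 34.3% of the B cells at 7, 14 and 21 days.

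Over all cells, levels follow both the share of each cell type and the level within it, which cannot be told apart in a sum. A gene was considered when its mean level over both libraries was at least 0.1 per 10000 and it had at least 50 UMIs, which held for 7357 genes. Of these, 154 (2.09%) were at least 2-fold higher on day 14 and 247 (3.36%) at least 2-fold lower, with a median log2 ratio of 0.04 over all of them. Genes of G2 and M phase led the higher side. Of 52 considered, 31 were past 2-fold higher and none lower, with a median log2 ratio of 1.06, and the 42 genes of S phase had a median of 0.60 with 3 past 2-fold. ASPM, which focuses spindle poles, was at 0.484 per 10000 on day 7 and 1.38 on day 14, 2.85-fold higher. KNL1 (2.58-fold), a scaffold of the kinetochore, and the mitotic kinases AURKB (2.53-fold), PBK (2.63-fold) and PLK1 (2.46-fold) were also among the 12 highest ratios. TOP2A, which sets the gate for cycling cells, is on this list, so the list and the cycling share (26.4% and 54.4%) are not independent, and the part of that share in these ratios was not tested.

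Of 22 germinal centre genes considered, 19 were above 0 over all cells, with a median log2 ratio of 0.61. Past 2-fold were 3 on the higher side, among them BCL7A and MYBL1, and STAP1 on the lower side (0.183 and 0.0622 per 10000, 2.94-fold lower). NUGGC, a gene outside the list that encodes the nuclear GTPase of germinal centre B cells (chromosome 14, bases 11775684 to 11826162 of Sscrofa11.1), was at 1.27 per 10000 on day 7 and 3.31 on day 14, 2.60-fold higher. BCL7A, a subunit of the SWI/SNF chromatin remodeling complex, was at 0.631 and 1.57 (2.49-fold). The highest ratio among genes at a mean level of at least 0.5 was that of CXCL10, an interferon-induced chemokine, at 0.171 and 1.10 (6.42-fold), with UMIs in 359 cells on day 7 and 779 on day 14. The most UMIs of CXCL10 in a cell were 384 on day 14, and its 10 highest cells held 23.2% of its UMIs there. The interferon-stimulated list as a whole had a median log2 ratio of -0.24 over all cells, with 24 of 30 below 0 and CXCL10 alone past 2-fold. ISG12(A), an interferon-inducible gene that was not on the list by this name, was among the 12 lowest ratios at 0.832 and 0.198 (4.20-fold lower).

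The genes with the lowest ratios over all cells belonged mostly to cells other than B cells. Of the 16 epithelial genes considered, 15 were past 2-fold lower, with a median log2 ratio of -3.11. The minimums use the mean of both ages, so a gene can enter through its day 7 level alone, which favors the lower side. The sum over all 34 genes, given above, does not depend on them. SPP1, the secreted phosphoprotein osteopontin, was 88.2-fold lower (1.13 and 0.0128 per 10000), with UMIs in 675 and 31 cells. The apolipoprotein gene APOA1 was 9.85-fold lower and FABP6, which binds bile acids in ileal enterocytes, 6.03-fold lower (3.04 and 0.505). The hemoglobin gene HBB was 38.0-fold lower (3.41 and 0.0898), but 56% of its day 7 UMIs lay in 10 cells and it was at 12.3 on day 21. For NTS, the neuropeptide of enteroendocrine N cells, 10 cells held 91% of the UMIs on day 7 and 92% on day 14. KLF2 (5.11 and 1.22, 4.20-fold lower) and FOSB (1.54 and 0.396, 3.89-fold lower) were, as a gene of resting lymphocytes and an immediate early gene, also among the 12 lowest. Changes within gated cells, which follow, are less exposed to the share of each type. Each gate still pools cells in different states, and the share of a state and the level within it cannot be told apart there.

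In non-cycling B cells, 98 of 7089 genes (1.38%) were at least 2-fold higher on day 14 and 127 (1.79%) at least 2-fold lower. The germinal centre list was higher as a whole in its median, at a log2 ratio of 0.59 against 0.04 over all genes, with 19 of 22 genes above 0. Genes of the list past 2-fold higher included RGS13, BCL7A and FAS, and past 2-fold lower was STAP1, an adaptor of B cell signalling. RGS13, a regulator of G protein signalling in germinal centre B cells, was at 0.401 and 0.926 (2.31-fold). FAS, the death receptor of activated B cells, was at 0.103 and 0.240 (2.34-fold), and the transcription factor MYBL1 at 1.27 and 2.50 (1.97-fold). BCL6 was at 1.19 on day 7 and 1.61 on day 14, 1.35-fold higher. Barcodes with up to 100 UMIs hold mainly RNA free in the suspension. There, RGS13 was at 0.283 and 0.700 per 10000 (2.48-fold) and FAS at 0.117 and 0.225 (1.92-fold). MYBL1 was at 1.23 and 2.68 (2.18-fold) in these barcodes and BCL6 at 0.759 and 1.24 (1.63-fold). The part of free RNA in the ratios of these genes was not tested. NUGGC, which was not on the list, was at 0.961 per 10000 on day 7 (0.923 to 0.999) and 1.99 on day 14 (1.93 to 2.06), a ratio of 2.08 (1.97 to 2.18). A UMI of NUGGC was found in 1510 of the 6428 cells and in 2181 of the 5143 cells. At an equal 1000 UMIs per cell, 8.39% of the cells on day 7 and 18.6% on day 14 had one. In T cells, which should lack the gene, the thinned shares were 0.926% and 1.96% at median depths of 4279.5 and 2958 UMIs, so the share in B cells lay above this background at both ages. Unthinned, the T cell shares were 3.01% and 5.04%.

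The highest ratios in non-cycling B cells also included genes outside the lists. NREP, named for neuronal regeneration, was at 0.210 and 1.02 per 10000 (4.83-fold) with UMIs in 412 and 1319 cells. MAPK4, an atypical mitogen-activated protein kinase, was at 0.276 and 0.965 (3.50-fold), LIX1 at 0.320 and 1.05 (3.27-fold) and the magnesium transporter SLC41A2 at 0.347 and 0.901 (2.60-fold). MAST4, a microtubule-associated kinase, was at 0.509 and 1.24 (2.43-fold), and CCDC181 at 0.369 and 0.882 (2.39-fold). The levels of these 6 genes on day 21 were higher still, between 1.17 for CCDC181 and 1.82 for MAST4. RRM2, a subunit of ribonucleotide reductase, was at 0.557 and 1.38 (2.48-fold), although the gate admits no UMI of TOP2A or PCLAF. In barcodes with up to 100 UMIs, RRM2 was at 1.08 and 2.40 (2.22-fold), above its level in non-cycling B cells at both ages. The part of free RNA in its ratio was not tested. The listed genes of G2 and M phase had a median log2 ratio of 0.46 in non-cycling B cells with 4 of 26 past 2-fold higher (UBE2C, BIRC5, TPX2 and CENPE).

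LOC100152327, an unnamed gene that spans bases 48800248 to 49001525 of chromosome 14, had by far the most UMIs of the named genes. It was at 167 per 10000 on day 7 and 430 on day 14, 2.57-fold higher, and at 154 on day 21. LOC396781, whose synonyms include IGHG, an immunoglobulin heavy chain, had the highest ratio in non-cycling B cells at that minimum, 6.01-fold, at 0.318 and 1.91. It was found in fewer cells on day 14 (265) than on day 7 (435), and 10 cells held 91% of its day 14 UMIs, against 29% on day 7. Thinned to 1000 UMIs per cell, its log2 ratio was -0.90 in place of 2.59. The gate was set again on the thinned counts, so the cells of the set also changed. Antibody loci hold near-identical segments, so the counts of LOC396781 may be split or merged by the counting.

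Plasma cell genes were higher in non-cycling B cells at the median (log2 ratio 0.51, 16 of 17 above 0), with only PRDM1 past 2-fold. PRDM1, the master regulator of plasma cells, was at 0.333 on day 7 and 0.669 on day 14, and JCHAIN, which joins IgA and IgM into polymers, at 2.62 and 5.17 (1.98-fold). On day 21 they were at 0.306 and 3.23, both below day 14. In cycling B cells the same list had a median of -0.37, 2 of 16 genes above 0 and TXNDC5, a protein disulfide isomerase of the endoplasmic reticulum, past 2-fold lower (0.872 and 0.387). PRDM1 in cycling B cells was at 0.445 and 0.277. The direction of PRDM1 thus differed between the B cell sets, a difference that was not tested.

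The naive or resting lymphocyte list lay below 0 in both B cell sets. In non-cycling B cells its median log2 ratio was -0.66, with 15 of 17 genes below 0 and 5 past 2-fold lower. KLF2 was at 7.97 per 10000 on day 7 (7.86 to 8.08) and 2.87 on day 14 (2.79 to 2.95), 2.78-fold lower, and at 0.532 on day 21. At 1000 UMIs per cell, 37.9% of the non-cycling B cells on day 7 and 13.8% on day 14 had a UMI of KLF2, against 53.9% and 23.5% unthinned. S1PR1 was at 0.446 and 0.168 (2.65-fold lower), FCER2, the low-affinity IgE receptor CD23 of mature follicular B cells, at 0.683 and 0.155 (4.41-fold lower), and SATB1, a chromatin organizer, at 0.315 and 0.0703 (4.48-fold lower). CD55, which protects cells from complement, was at 2.96 and 1.19 (2.49-fold lower). CCR7, the receptor that guides lymphocytes to T cell zones, was at 0.525 and 0.333, short of 2-fold. The exceptions on this list were CD44 (0.386 and 0.454) and ZFP36L2 (0.793 and 1.16). Among genes outside the list, BANK1, a scaffold of B cell receptor signalling, was 3.00-fold lower (1.06 and 0.354), and IL18BP, the decoy receptor of interleukin 18, 3.13-fold lower (2.41 and 0.771).

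**Figure D2:**
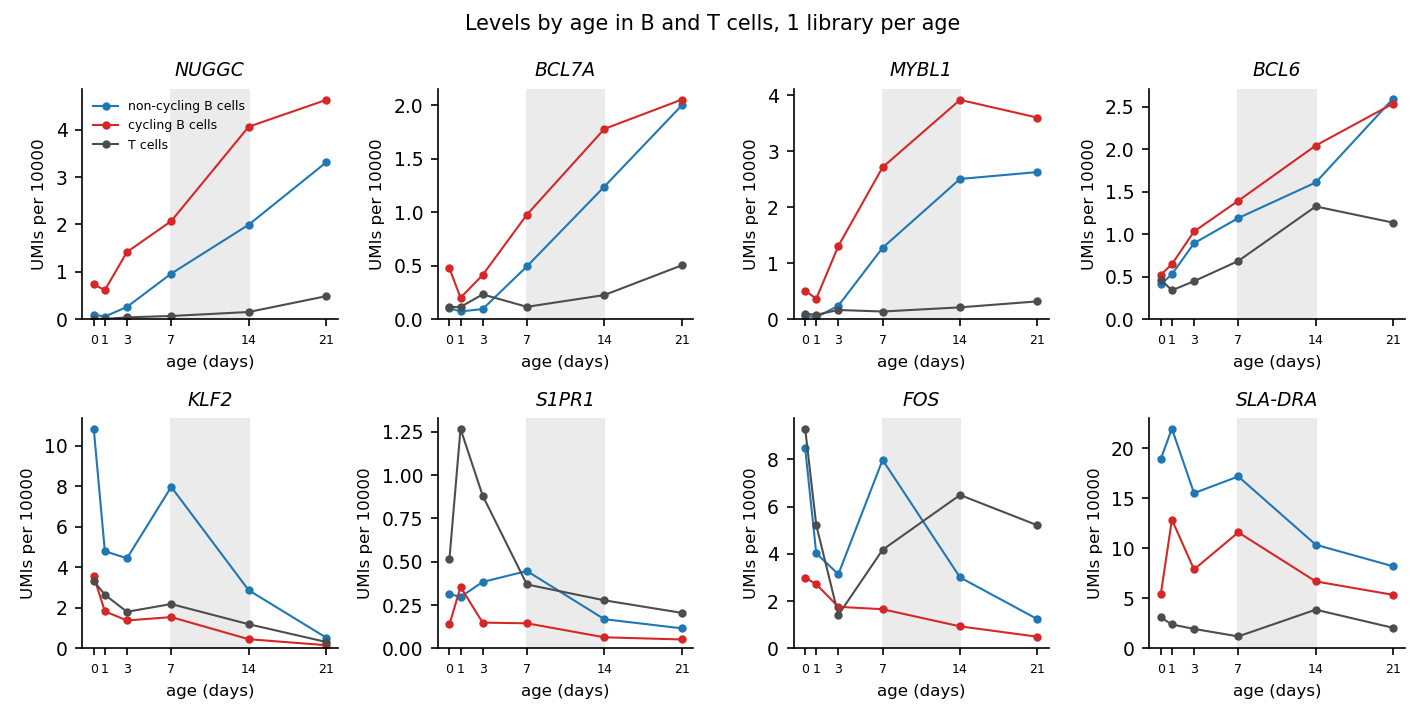
Levels of 8 genes (UMIs per 10000, vertical) by age in days (horizontal) in non-cycling B cells, cycling B cells and T cells, 1 library per age, with the second week shaded. NUGGC, BCL7A, MYBL1 and BCL6 were higher on day 14 than on day 7 in both B cell sets and KLF2, S1PR1, FOS and SLA-DRA lower, while SLA-DRA in T cells went from 1.19 to 3.86.

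Immediate early genes, which respond within minutes to stimulation or to tissue handling, were lower in non-cycling B cells. Of 18 considered, 17 were below 0 and 6 past 2-fold lower, with a median log2 ratio of -0.82. The AP-1 subunit FOS was at 7.98 and 3.00 (2.66-fold lower), FOSB at 2.06 and 0.617 (3.34-fold lower) and JUNB at 5.52 and 2.48 (2.23-fold lower). EGR1, the zinc finger factor induced by growth signals, was 2.43-fold lower, and IER2 and the mRNA decay factor ZFP36 were 2.74-fold and 2.11-fold lower. In cycling B cells the median was -0.55, with FOSB, EGR1 and IER2 past 2-fold of 16 considered. In T cells the same list went the other way, with a median of 0.49 and 15 of 18 above 0, and ATF3 at 1.19 and 3.83 (3.22-fold). The part of handling in these levels was not tested. Heat shock genes, another list that moves with stress, had a median log2 ratio of 0.05 in non-cycling B cells, and their sum per cell had a median of 96.7 per 10000 on day 7 and 82.0 on day 14.

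Genes of the class II major histocompatibility complex (MHC), with which B cells present peptides to helper T cells, were lower in B cells. In non-cycling B cells, 11 of 11 were below 0, none past 2-fold, with a median log2 ratio of -0.57. SLA-DRA, the pig DR alpha chain, was at 17.2 on day 7 and 10.4 on day 14 (1.66-fold lower), SLA-DQB1 at 16.3 and 8.26, and CD74, the invariant chain, at 68.7 and 55.1. CIITA, the transactivator of these genes, was at 0.741 and 0.483. Summed over the 11 genes, the level was 140 and 96.4 in non-cycling B cells and 93.5 and 60.8 in cycling B cells. In barcodes with 1 to 100 UMIs, which hold mainly RNA free in the suspension, the sum was 101 and 66.2. The genes of MHC class I had a median of -0.36 in non-cycling B cells, with SLA-1 (9.43 and 3.86, 2.45-fold lower) and SLA-6 (1.12 and 0.488) past 2-fold of 16 considered. In barcodes with 1 to 100 UMIs, SLA-1 was at 7.78 and 3.15 and SLA-6 at 0.839 and 0.418. The part of free RNA in the ratios of class I genes was not tested. The class I genes are near-identical copies, so reads may be split between them and the values of each are uncertain.

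In cycling B cells, 35 of 7103 genes (0.493%) were at least 2-fold higher on day 14 and 96 (1.35%) at least 2-fold lower. Thinned to 1000 UMIs, which left 872 and 3143 cells in the gate, 130 of 6583 (1.97%) were higher and 99 (1.5%) lower. More genes were then higher than lower, the opposite of the unthinned counts. NUGGC was at 2.07 per 10000 on day 7 (2.01 to 2.13) and 4.07 on day 14 (4.02 to 4.12), 1.96-fold higher. Of the 2680 and 7899 cells gated before thinning, 19.0% and 31.3% had a UMI of NUGGC at 1000 UMIs per cell. Unthinned, the shares were 52.9% and 76.2%. POLH, the error-prone polymerase eta, was at 0.404 and 0.792 (1.96-fold), and BCL7A at 0.976 and 1.78 (1.82-fold). The germinal centre list had a median log2 ratio of 0.29 with 18 of 21 above 0, and the ectoenzyme CD38 was past 2-fold lower (0.256 and 0.111). NREP (3.06-fold), MAPK4 (2.36-fold) and LIX1 (2.01-fold), high in non-cycling B cells, were here among the 5 highest ratios too, with TMSB15A, a thymosin beta that binds actin, at 0.411 and 0.887 (2.16-fold). BACH2, a repressor that holds B cells back from the plasma cell fate, was at 1.13 and 2.10 (1.85-fold) and CD86, a costimulatory ligand, at 0.586 and 1.04 (1.78-fold). Of 52 genes of G2 and M phase, 51 were above 0 but none was past 2-fold, with a median of 0.38, and the 43 S phase genes had a median of 0.03.

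On the lower side, cycling B cells were led by KLF2, at 1.54 and 0.451 per 10000 (3.42-fold lower), apart from HBB, for which 10 cells held 87% of the day 7 UMIs. IL18BP was 3.24-fold lower and PLAC8, a small cysteine-rich protein of lymphoid cells, at 5.71 and 2.38 (2.39-fold lower). Of 12 homing receptors considered, 4 were past 2-fold lower, namely CCR6 (0.401 and 0.145), the receptor for CCL20 of the epithelium over follicles, CCR7 (0.160 and 0.0647), S1PR1 (0.144 and 0.0637) and GPR183 (0.323 and 0.120), an oxysterol receptor that draws B cells to the follicle rim. S1PR2, which confines B cells to germinal centres, was at 1.20 and 1.77, and P2RY8, a receptor of like function, at 0.498 and 0.713. The NF-kB and activation list had BATF (0.321 and 0.126) and EGR1 past 2-fold lower of 21. MHC class II chains past 2-fold lower were SLA-DRB1 (7.14 and 3.41), SLA-DQA1 (10.2 and 5.09) and SLA-DQB1 (9.85 and 4.50), and all 11 class II genes considered were below 0. SDF2L1 (1.05 and 0.435) and TXNDC5, both of the endoplasmic reticulum, were 2.42-fold and 2.25-fold lower. In the barcodes that hold mainly free RNA, KLF2 was at 3.81 and 1.21, CCR7 at 0.305 and 0.0913 and GPR183 at 0.351 and 0.193. These levels were above those in cycling B cells at both ages. S1PR1, at 0.186 and 0.0609, was above at the earlier age only, and CCR6, at 0.325 and 0.227, at the later age only. The part of free RNA in the ratios of these genes was not tested.

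The B cell sets were compared gene by gene. Of the 6676 genes considered in both, 86 were past 2-fold higher in non-cycling and 25 in cycling B cells, and the 19 shared were 22.1% of the former and 76.0% of the latter. On the lower side 75 and 93 genes passed, and the 48 shared were 64.0% and 51.6%. LOC396781, higher in non-cycling and lower in cycling B cells, and NTS, lower in non-cycling and higher in cycling B cells, were past 2-fold in opposite directions. Both sets come from the same libraries, so this overlap is no replicate of the ages.

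**Figure D3:**
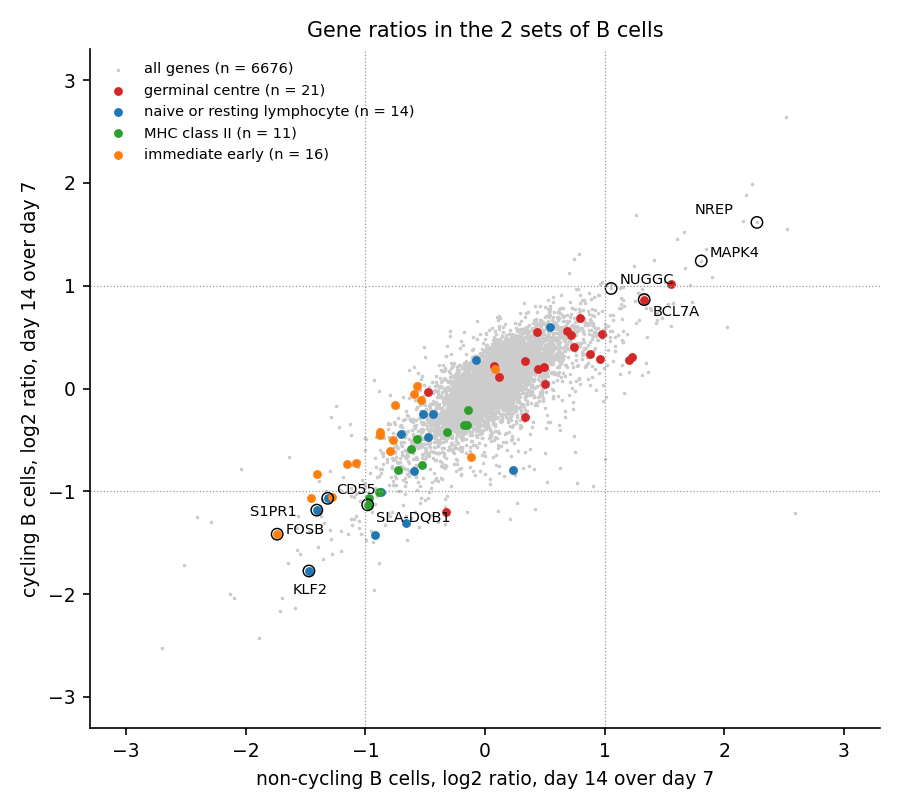
Log2 ratio of day 14 over day 7 in non-cycling (horizontal) and cycling B cells (vertical), 1 point per gene for the 6676 genes considered in both, with dotted lines at 2-fold and 2 genes outside the axes. Germinal centre genes lie mostly at the upper right, and naive, MHC class II and immediate early genes at the lower left.

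T cells were few, 432 and 357, so their levels are coarser, and their median depth was lower on day 14 (2958 against 4279.5 UMIs). Of 6702 genes considered, 182 (2.72%) were at least 2-fold higher on day 14 and 96 (1.43%) at least 2-fold lower, with a median log2 ratio of 0.00. Interferon-stimulated genes were higher. Of the 36 considered, 36 were above 0 and 22 past 2-fold higher, with a median of 1.11. ISG15, a ubiquitin-like protein, was at 13.2 per 10000 on day 7 and 34.3 on day 14 (2.61-fold). IFI6 was at 22.4 and 45.5 (2.03-fold) and MX1, a dynamin-like antiviral GTPase, at 4.09 and 8.16. RSAD2, the antiviral enzyme viperin, was at 0.553 and 2.93 (5.30-fold), DDX58, the RNA sensor RIG-I, at 0.397 and 1.70 (4.28-fold), and IFIT3 at 0.569 and 1.96 (3.45-fold). CXCL10 had the highest ratio at a mean level of at least 0.5, 13.3-fold (0.323 and 4.31), with UMIs in 17 cells on day 7 and 61 on day 14, and 10 cells held 91.1% and 62.4% of them. Its log2 ratio of 3.74 was 1.52 in T cells with CD8A or CD8B and without CD4, 4.33 in T cells without B or plasma cell UMIs and 6.09 thinned to 1000 UMIs.

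Per T cell, the summed interferon-stimulated level had a median of 37.5 per 10000 on day 7, 84.9 on day 14 and 41.4 on day 21. The upper quartile was at 84.4, 283 and 81.0 at the same ages, so that day 14 had a long upper tail. ISG15 was found in 35.0% of T cells on day 7 and 55.2% on day 14 at 1000 UMIs per cell, and in 10.1% and 7.14% of cycling B cells. Unthinned, 62.7% and 72.6% of T cells had a UMI of ISG15. In non-cycling B cells the same list had a median log2 ratio of 0.07 with CXCL10 alone past 2-fold (0.170 and 0.756), and in cycling B cells of -0.31. Per non-cycling B cell the summed level had a median of 15.5 and 9.73, and the tenth of cells with the most held 50.3% and 64.3% of its UMIs. Free RNA in barcodes with 1 to 100 UMIs was at 21.7 and 24.5 per 10000 for the list as a whole. CXCL10 alone was at 0.208 and 1.22 there, above its level in non-cycling B cells at both ages. In T cells without a UMI of 9 B and plasma cell genes (195 and 161 cells), the median log2 ratio of the interferon-stimulated list was 1.37, and it was 1.12 in T cells with CD8A or CD8B and without CD4.

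**Figure D4:**
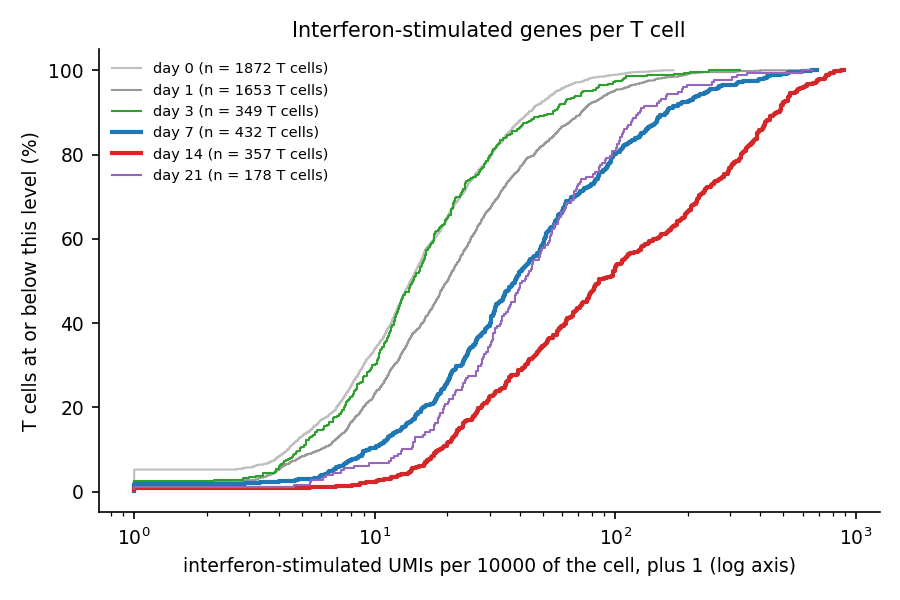
Cumulative share of T cells (%, vertical) against the summed UMIs of interferon-stimulated genes per 10000 of the cell, plus 1 (horizontal, log axis), 1 line per age. The median was 84.9 on day 14 against 37.5 on day 7 and 41.4 on day 21, and the upper quartile 283 against 84.4 and 81.0.

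MHC class II genes were also higher in T cells, in contrast to B cells. Of 8 considered, 7 were past 2-fold higher, with a median log2 ratio of 1.32. SLA-DRA was at 1.19 on day 7 and 3.86 on day 14 (3.24-fold), CD74 at 6.28 and 14.6 (2.32-fold) and SLA-DMA, which loads peptides, at 0.418 and 1.14 (2.73-fold). The thinned share of T cells with SLA-DRA was 12.7% and 29.4%, and the unthinned share 36.8% and 48.5%. Summed class II was at 11.8 and 27.8 per 10000 in T cells, well below non-cycling B cells. Markers of other class II positive cells in the T cells are given beside it. The B cell surface genes summed to 8.99 and 9.64 per 10000, with a median log2 ratio of 0.16 and none of 8 past 2-fold. LOC100152327, the gene with by far the most UMIs of the named genes in non-cycling B cells, was at 4.13 and 21.2 (5.14-fold) in T cells, with UMIs in 310 and 341 cells, and at 142 and 252 in barcodes with 1 to 100 UMIs. In T cells, 10 cells held 42.2% of its UMIs on day 7 and 58.2% on day 14, when 1 cell held 1523, so this ratio rests largely on few cells. The plasma cell genes summed to 26.7 and 27.8, with MZB1 past 2-fold higher (0.184 and 0.449), and of the B cell activation list CD83 was past 2-fold higher (0.123 and 0.352). The germinal centre genes summed to 5.76 and 7.87, with 13 of 14 above 0 and a median of 0.54. The 23 myeloid genes summed to 2.11 and 3.20, of which FCER1G, also a gene of cytotoxic cells, made up 1.49 and 1.89. The 4 of them considered were above 0, with a median log2 ratio of 0.34 and S100A9 past 2-fold higher. Of the macrophage genes on this list, CSF1R, CD68, AIF1, MSR1, C1QA, C1QB and C1QC had no UMI in T cells on day 14 and MRC1 and CD163 none at either age. None of these genes reached the minimums, and a count of 0 in 357 cells of low depth can be a missed gene. They are only a part of the list, which as a whole summed to more on day 14. Other genes of the list, among them LYZ, CD14 and the dendritic cell genes FLT3, CLEC9A and XCR1, are not itemized. The counts of 0 say nothing about them. S100A9, a calcium-binding protein of neutrophils and monocytes, had 2 UMIs on day 7 and 55 on day 14, and S100A12 had 2 and 31. Their part in the class II and interferon values was not tested. In the T cells without B or plasma cell UMIs the class II median was 1.26. In T cells with CD8A or CD8B and without CD4 (112 and 109 cells) it was 0.90.

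Heat shock genes were higher in T cells, with 5 of 17 past 2-fold, 16 above 0 and a median log2 ratio of 0.68. BAG3, a cochaperone of HSP70, was at 0.315 and 2.37 per 10000 (7.51-fold), found in 49 and 105 cells. HSPB1, a small heat shock protein, was at 2.31 and 7.94 (3.44-fold), ZFAND2A, an arsenite-inducible zinc finger gene, at 0.385 and 1.66 (4.32-fold), and DNAJB1, an HSP40 cochaperone, at 9.15 and 18.8 (2.05-fold). HSPA8, a constitutive HSP70, was at 18.5 and 31.0. The heat shock sum per cell had a median of 100 per 10000 on day 7 and 145 on day 14 in T cells, against 96.7 and 82.0 in non-cycling B cells. Whether preparation moved these genes was not tested.

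Regulatory and checkpoint genes of T cells were lower. Of 14 considered, 13 were below 0 and 5 past 2-fold lower, with a median log2 ratio of -0.70. FOXP3, the defining factor of regulatory T cells, had 53 UMIs on day 7 and 9 on day 14, or 0.217 and 0.0674 per 10000. IL10, an anti-inflammatory cytokine, was at 1.07 and 0.532, with UMIs in 68 and 23 cells, of which 10 held 51.3% and 80.3%. The ectonucleotidase ENTPD1 was at 0.426 and 0.165, the chemokine receptor CCR4 at 0.483 and 0.232, and IKZF4 at 0.197 and 0.0899. The list was not lower in T cells alone. Its median was -0.50 in non-cycling B cells (2 of 5 genes above 0) and -0.43 in cycling B cells (2 of 4), where IL10 and BATF were past 2-fold lower. CTLA4, an inhibitory receptor, was at 0.270 and 0.247. IKZF2 was the exception above 0, at 2.53 and 4.19. In T cells without B or plasma cell UMIs the median was -0.24. CD4 was found in 5.56% and 4.76% of T cells at 1000 UMIs per cell, and CD8A or CD8B in 14.1% and 17.6%, with overlapping intervals of 11.0 to 17.8% and 13.8 to 22.0%. Unthinned, these shares were 24.1% and 12.3% for CD4 and 30.8% and 33.3% for CD8A or CD8B.

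Effector genes of T cells differed from member to member. Among 16 cytotoxic genes, GZMH (0.237 and 1.21), GNLY (0.221 and 0.989), TBX21 (0.192 and 0.397), the T-box factor of type 1 immunity, and XCL1 (1.72 and 3.50) were past 2-fold higher, and GZMA (0.479 and 0.157) past 2-fold lower. GNLY, the pore-forming granulysin, was in 5 cells on day 7 and 11 on day 14. GZMH was in 16 and 41 cells, of which 10 held 89.7% and 55.9% of its UMIs. GZMB, granzyme B, was at 4.74 and 3.71. In T cells with CD8A or CD8B and without CD4, the cytotoxic median was -0.10 in place of 0.54, so the direction of this list depended on which T cells were taken. Among type 3 genes, IL22, which acts on epithelium, was at 0.909 and 2.90 (3.19-fold), and IL26 at 0.806 and 0.232 (3.47-fold lower). IL26 was in 49 and 18 cells, of which 10 held 55.8% and 74.2% of its UMIs. IL17F had 111 UMIs on day 7 and 2 on day 14. The naive list in T cells had IL7R, the interleukin 7 receptor (0.671 and 1.69), and TXNIP (0.336 and 0.749) past 2-fold higher, and KLF2 at 2.19 and 1.19. Genes of G2 and M phase had a median of -0.39 in T cells, with MKI67, NDC80, CKAP2 and CKAP2L past 2-fold lower of 44, the opposite side from the B cells.

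Epithelial genes in the gated cells were mostly lower on day 14. Of the 4 considered in T cells, FABP2, FABP6 and APOA1 were past 2-fold lower and CDH1, the adhesion protein E-cadherin, past 2-fold higher (0.0737 and 0.285 per 10000). Such a gene can reach the minimums through 1 age alone. In T cells, FABP6 had 367 UMIs in 41 cells on day 7 and 0 UMIs on day 14, at least 66.9-fold lower by a floor of 3 UMIs in the day 14 set. Of these 367 UMIs, 1 cell held 323, so the bound rests mostly on that cell. The 34 epithelial genes, FABP6 included, summed to 4.74 and 0.756 per 10000 in T cells. In non-cycling B cells the sum was 4.49 and 0.837, and in barcodes with 1 to 100 UMIs 15.2 and 6.66. HBB in T cells was at 8.70 and 0.0899, with 98% of the day 7 UMIs in 10 cells. The part of such foreign RNA in the ratios of other genes was not tested.

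**Figure D5:**
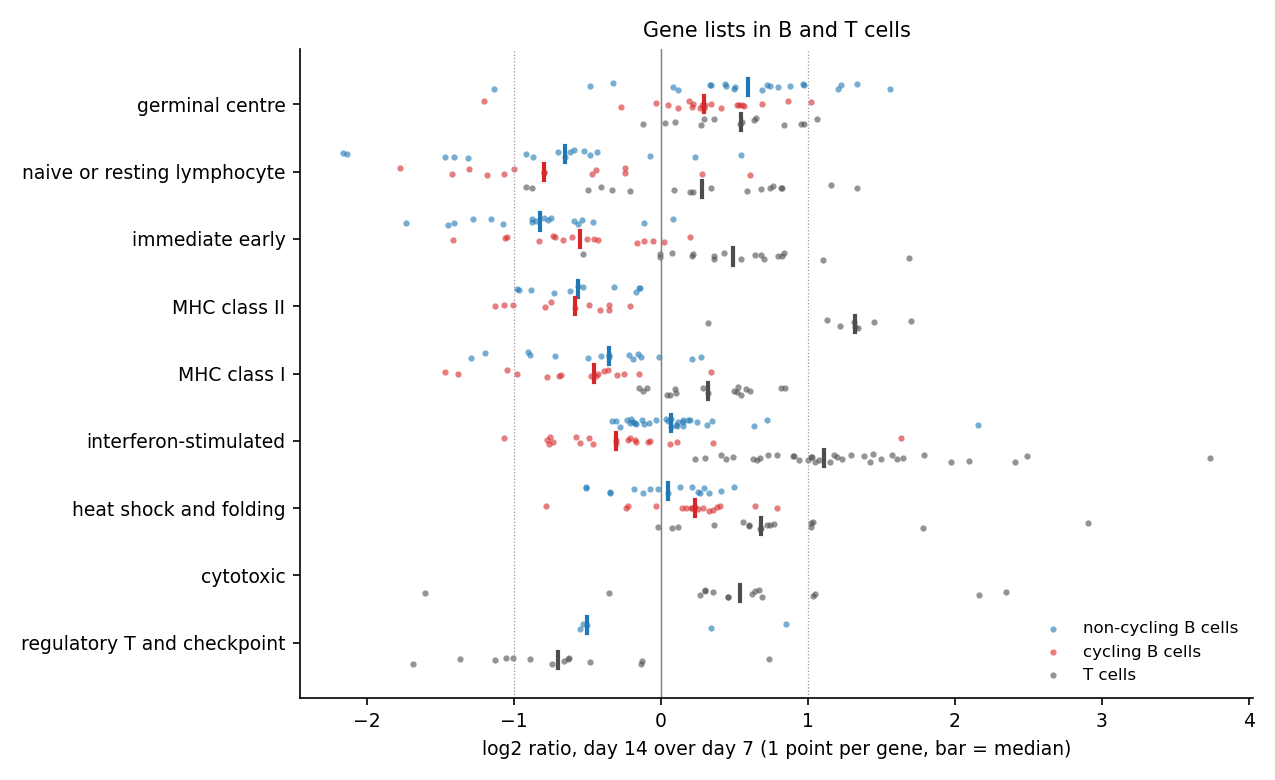
Log2 ratio of day 14 over day 7 (horizontal) for the genes of 9 lists (vertical), 1 point per gene considered and a bar at the median, in non-cycling B, cycling B and T cells, with dotted lines at 2-fold. Interferon-stimulated and MHC class II genes lie to the right in T cells (medians 1.11 and 1.32), and naive and immediate early genes to the left in both B cell sets.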

How the data were processed

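Single cells of the ileum of piglets were profiled at 6 ages, 1 library per age, and the libraries of day 7 and day 14 were compared. The authors deposited raw UMI counts per gene and barcode (20648 genes, 6794880 barcodes per library), and the submitters' processing notes name Cell Ranger 3.1.0, STAR and the susScr11 build (Sscrofa11.1). The labels name version 3 of the kit chemistry and the methods of the study version 2. Barcodes with at least 1000 UMIs and 500 genes were kept, with no limit on mitochondrial share and no doublet caller. The gates are given with the results.

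Counts were summed per gate and expressed per 10000 UMIs. A gene was considered at a mean level of at least 0.1 and at least 50 UMIs over both libraries, and a change was counted past 2-fold by its ratio alone, without a test. Levels carry exact Poisson, ratios exact conditional and shares exact binomial (Clopper-Pearson) intervals at 95%, which cover counting error only. A gene at 0 in 1 library was set to a floor of 3 UMIs per set of cells. Genes were named as the 12 highest and 12 lowest ratios per set at a mean level of at least 0.5, with members of 32 gene lists. Genes of a gate were left out of list counts within gated cells. The cells compared and the lists were chosen with earlier results of these data known. A few genes are not reported here. All 20648 symbols matched the reference table of genes.

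Alternatives were other minimums per barcode, a mitochondrial limit of 25%, thinning to 1000 UMIs, leaving out shared barcodes or the top 5% of UMIs, means over barcodes, TMM scaling, no filter on low levels and, added after seeing the data, 3 narrower T cell gates. For shares of cells with a UMI of a gene at 1000 UMIs, cells were gated before thinning. For all other thinned values, the gates were set again on the thinned counts. The computation was tested on simulated data. Python 3.11.15, numpy 2.4.6, scipy 1.17.1, pandas 2.3.3, matplotlib 3.10.9, R 4.3.3 and edgeR 4.0.16 (TMM factors only) were used.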

Additional observations from a re-analysis of the deposited data

Results flagged for a closer look

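MHC class II genes went in opposite directions in T and B cells. Their median log2 ratio of day 14 over day 7 was 1.32 in T cells (8 of 8 above 0), -0.57 in non-cycling B cells and -0.59 in cycling B cells (0 of 11 above 0 in each). The difference was not tested, since each age had 1 library.

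In barcodes with 1 to 100 UMIs, which no comparison above took as cells, 6 listed genes had a ratio above 4, among them CXCL10 (5.84), BUB1 (4.16), S100A9 (26.8, from 3 UMIs on day 7) and CLCA1 (10.6, from 7 UMIs). The other two were at a level of at least 0.5 per 10000 on day 14 and were not past 2-fold higher over all cells. HMMR, a receptor for hyaluronan that also acts at the mitotic spindle, was at 0.234 per 10000 on day 7 (82 UMIs) and 1.00 on day 14 (494 UMIs), a ratio of 4.28, against 1.99 over all cells. TFF3, the trefoil factor of goblet cells, was at 0.434 (152 UMIs) and 4.31 (2124 UMIs), a ratio of 9.93, while over all cells its ratio was 0.658.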

How the results depend on the processing

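No paired analysis was possible because each age had 1 library. Without replicates, the values describe 2 libraries, and doublets were not called. The B cell share was 10.7 percentage points higher on day 14, 6.88 with at least 2000 UMIs, 17.7 with at least 500 UMIs and 250 genes, 8.14 with a mitochondrial share under 25% and 13.1 thinned to 1000 UMIs. The T cell share differed by -1.18 points, and by -1.78, -0.638 and -0.642 with at least 2000 UMIs, with at least 500 UMIs and thinned. The difference in the cycling share was 17.8 points thinned, against 27.97. Thinned, 130 (1.97%) of 6583 genes were past 2-fold higher and 99 (1.5%) lower in cycling B cells. In T cells, for which fewer genes then reached the minimum, 66 (4.19%) of 1575 were higher and 21 (1.33%) lower. With every gene that had a UMI in each library, low counts enter. Then 886 (5.6%) of 15812 were higher and 2763 (17.5%) lower over all cells. In non-cycling B cells, 1036 (7.28%) of 14237 were higher and 1605 (11.3%) lower. In cycling B cells these were 623 (4.3%) and 1645 (11.4%) of 14472, and in T cells 803 (7.15%) and 595 (5.3%) of 11230. In T cells with CD8A or CD8B and no CD4, 83 (2.57%) of 3234 were higher and 51 (1.58%) lower, against 2.72% and 1.43% in all T cells. In T cells without TOP2A or PCLAF, 148 (2.92%) of 5074 were higher and 61 (1.2%) lower. LOC396781 in non-cycling B cells reversed when thinned, to a log2 ratio of -0.90, and the cause was not tested. Of the 88 named ratios past 2-fold, 88 kept their sign under each of the other 8 settings than thinning that covered all sets, and 86 of 87 did so thinned. Between 76 and 88 were still past 2-fold. The kept sign was fixed in advance with no filter on low levels, which leaves each ratio as it is. It was also fixed with TMM scaling, whose factors lay between 0.989 and 1.011. In T cells without B or plasma cell UMIs, with CD8A or CD8B and no CD4, and without TOP2A or PCLAF, 23 of 23 kept their sign, and 21, 15 and 19 were still past 2-fold.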

Other observations

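Barcodes in neither the B nor the T cell gate (2048 on day 7 and 1070 on day 14) differed in their leading genes. Of 28 epithelial genes considered there, 23 were past 2-fold lower on day 14 and APOA4 past 2-fold higher, with a median log2 ratio of -1.80 against -0.03 over all genes. A gene can reach the minimums through the age at which it is high, so these counts are not independent of the direction. Over all 8357 genes considered, 9.19% were past 2-fold lower and 3.54% higher. FABP6 was at 21.5 per 10000 on day 7 and 8.21 on day 14, and APOA1 at 10.2 and 2.35. All 23 myeloid genes of the list summed to 12.1 per 10000 on day 7 and 18.3 on day 14. The minimums left 17 of them, some only through the age at which they were high, and 16 of these were past 2-fold higher and SPP1 past 2-fold lower. The monocyte lectin FCN1 was at 0.0458 and 1.15, S100A9 at 0.170 and 2.16, S100A12 at 0.0724 and 1.08, and lysozyme (LYZ) at 0.724 and 2.52, while SPP1 was at 7.20 and 0.186.

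Interferon-stimulated genes were higher in these barcodes too, 36 of 36 above 0 with a median log2 ratio of 0.95. ISG15 was at 6.23 and 28.3 per 10000. CXCL10 was 31.3-fold higher, and these barcodes held 5502 of the 9856 UMIs of CXCL10 found in cells on day 14. Germinal centre genes were past 2-fold higher in 10 of 23 cases and lower in 1 (median 0.91), and genes of G2 and M phase in 16 of 49 and none (median 0.92). In the same barcodes the genes of the mitochondrial genome were lower, 13 of 13 below 0 with a median of -0.92, and median depth was 2033 UMIs on day 7 and 2759 on day 14.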
